A study of Mus musculus with 6 samples.

Results

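In LSK cells, bone marrow (BM) cells that lack lineage markers and carry Sca1 and c-Kit, 10 genes of lymphoid priming were followed. These cells include the hematopoietic stem and multipotent progenitor cells. The genes are *Dntt*, *Rag1*, *Rag2*, *Il7r*, *Notch1*, *Ikzf1*, *Tcf7*, *Satb1*, *Sox4* and *Bcl11a*, a list fixed by name, and all 10 have a row among the 54532 genes of the deposited table. LSK cells came from *Myh9*fl/fl;*Mx1-cre* mice (cKO) and from littermates that carried the floxed alleles without cre (CTRL), all on a C57BL/6 background and 3 libraries in each group. Both groups received poly I:C at 5 mg/kg, in 2 doses by the sample labels and in 3 by the methods, starting at 5 to 6 weeks after birth, and cells were sorted 4 days after the first dose. The *Mx1* promoter that drives cre responds to interferon and is not limited to blood cells, and the loxP sites flank exon 1 of *Myh9*.

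Each library was made from 100000 sorted cells and held 17571544 to 19894562 reads on genes. How many mice gave each library is not stated, so p-values measure the spread between these libraries. Values are FPKM, fragments per kilobase of gene scaled to the size of the library, so levels of different genes are set side by side per length. *Myh9* itself, whose reads are not limited to the deleted exon, fell from 22.5 ± 0.495 to 18.7 ± 1.18 FPKM (mean ± SD, n = 3, CTRL first, adjusted p = 0.00642, limma). The sorted markers were present in both groups, with *Kit* at 23.9 ± 0.454 and 21.5 ± 0.334 FPKM and *Ly6a*, which encodes Sca1, at 95.4 ± 1.87 and 89.5 ± 3.63 FPKM. Granule genes of early neutrophil progenitors were high as well, with *Mpo* at 3331 ± 32.1 FPKM in CTRL and 1953 ± 16.99 FPKM in cKO LSKs.

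Lymphoid priming is the low-level switching on of lymphoid genes in multipotent progenitors before they commit to the B, T or NK lineage. Ikaros (*Ikzf1*) and the chromatin organizer SATB1 open this program, the receptor FLT3 marks the progenitors that carry it, and terminal deoxynucleotidyl transferase (*Dntt*) and the RAG recombinase are among its earliest products. IL-7 receptor signals then carry B and T precursors forward, while NOTCH1 and its target TCF-1 (*Tcf7*) direct cells to the T lineage.

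The 10 genes ranged from abundant to barely detected. In CTRL LSKs the order by mean FPKM was *Dntt* (58.3), *Ikzf1* (41.3), *Sox4* (21.9), *Bcl11a* (5.93), *Tcf7* (2.95), *Satb1* (2.61), *Notch1* (2.43), *Rag2* (0.907), *Il7r* (0.710) and *Rag1* (0.0748). Neighbours whose ranges over the 3 CTRL libraries overlapped were *Tcf7* and *Satb1*, *Satb1* and *Notch1*, and *Rag2* and *Il7r*. All other neighbours lay apart. In cKO LSKs *Satb1* (2.49) stood above *Tcf7* (2.23) with overlapping ranges, and *Il7r* (1.12) stood above *Rag2* (0.684) with ranges apart. *Dntt* stood above 90.7% of the genes tested in CTRL and 91.7% in cKO LSKs. The summed FPKM of the 10 genes was 134 to 140.3 in CTRL and 133 to 139 in cKO libraries, so the sum did not separate the groups.

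**Figure D1:**
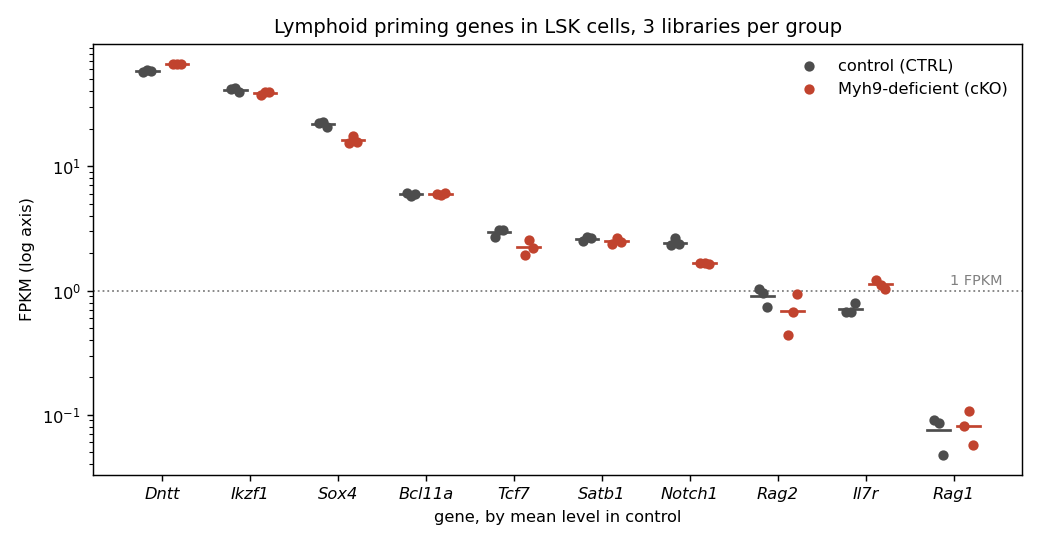
FPKM of each gene (log axis) in the 3 CTRL (grey) and 3 cKO (red) libraries, with bars at the group means and genes in order of their CTRL mean. *Dntt* and *Il7r* lie higher in every cKO library, *Ikzf1*, *Sox4*, *Tcf7* and *Notch1* lie lower, and *Bcl11a*, *Satb1*, *Rag1* and *Rag2* overlap.

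Of the 10 genes, 7 averaged 1 FPKM or more and were tested with limma on log2(FPKM + 1), with Benjamini-Hochberg adjustment over the 11552 genes of that level. Of the 7 tested, 1 rose (*Dntt*), 3 fell (*Sox4*, *Notch1* and *Tcf7*) and 3 did not pass an adjusted p of 0.05 (*Ikzf1*, *Satb1* and *Bcl11a*). Among all genes tested, 40.5% passed, of which 19.9% upward and 20.6% downward, as shares of the 11552. CTRL and cKO libraries did not overlap for 5 of the 7 (1 higher and 4 lower), against 54.0% of all genes tested (25.5% higher and 28.5% lower). With 7 genes, neither share is shown to differ from the background. With a replicate block, under which 35.6% of genes passed, no member's call changed. The median size of the log2 fold change was 0.19 for the 7 and 0.15 for all genes tested, and the median itself was -0.082 for the 7 and -0.0096 for all. No tested member changed 2-fold, while 2.13% of all genes passed 2-fold with an unadjusted p under 0.05 (1.43% higher and 0.701% lower). *Il7r*, *Rag2* and *Rag1* were below the level of testing and are described from their reads. The smallest two-sided p of an exact permutation test is 0.1 with 3 libraries in each group. In bulk RNA, fewer cells that express a gene and less RNA of it per cell cannot be told apart.

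**Figure D2:**
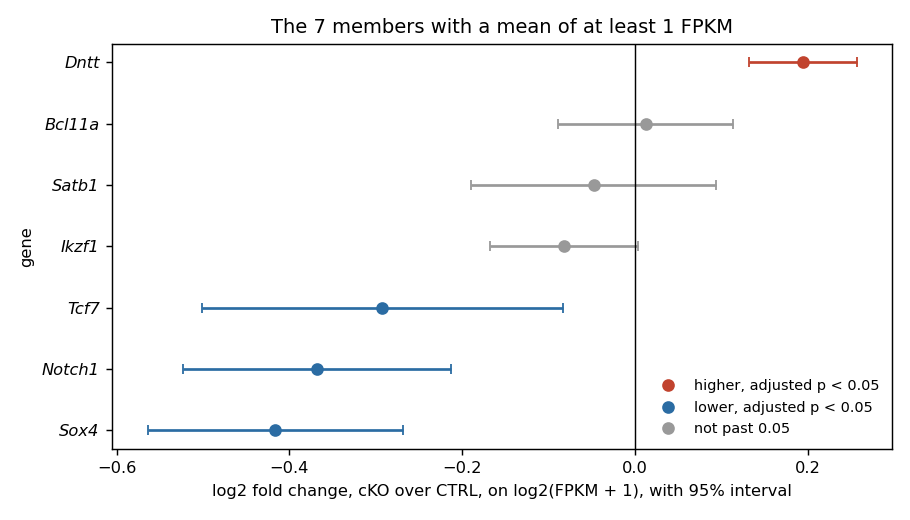
Log2 fold change of the 7 tested genes (cKO over CTRL, on log2(FPKM + 1)), with points for the limma estimate and bars for its 95% interval. *Dntt* lies to the right of 0 at 0.19, *Tcf7*, *Notch1* and *Sox4* lie to the left at -0.29, -0.37 and -0.42, and the intervals of *Bcl11a*, *Satb1* and *Ikzf1* cover 0.

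Sequences before the start sites are given for *Dntt* and *Il7r*, whose reads were higher in cKO LSKs, and for *Notch1* and *Sox4*, which had the lowest adjusted p among the genes that fell. The stretches are the 250 bases before the RefSeq start site (GRCm38.p6), at chr19:41029025-41029274 (plus strand), chr15:9529877-9530126 (minus), chr2:26503823-26504072 (minus) and chr13:28953700-28953949 (minus). They read 5′ to 3′ along the gene, with CpG dinucleotides in capitals. The RefSeq start of *Il7r* lies 300 bases, and that of *Notch1* 12841 bases, inside the 5′ end that the deposited table gives for the gene.
Dntt: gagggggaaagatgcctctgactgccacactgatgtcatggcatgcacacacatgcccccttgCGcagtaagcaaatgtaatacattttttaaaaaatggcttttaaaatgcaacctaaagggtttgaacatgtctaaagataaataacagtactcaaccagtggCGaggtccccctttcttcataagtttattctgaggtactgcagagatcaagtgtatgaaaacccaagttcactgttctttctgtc
Il7r: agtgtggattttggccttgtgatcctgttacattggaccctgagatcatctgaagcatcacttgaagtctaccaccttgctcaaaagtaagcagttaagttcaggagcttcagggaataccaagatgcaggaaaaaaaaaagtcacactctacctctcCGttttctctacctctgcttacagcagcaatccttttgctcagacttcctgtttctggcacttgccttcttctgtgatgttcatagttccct
Notch1: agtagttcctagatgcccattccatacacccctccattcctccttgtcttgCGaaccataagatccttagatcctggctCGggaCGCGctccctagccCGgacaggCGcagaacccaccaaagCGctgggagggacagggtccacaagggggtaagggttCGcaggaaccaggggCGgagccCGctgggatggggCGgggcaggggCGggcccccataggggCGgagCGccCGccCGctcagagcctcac
Sox4: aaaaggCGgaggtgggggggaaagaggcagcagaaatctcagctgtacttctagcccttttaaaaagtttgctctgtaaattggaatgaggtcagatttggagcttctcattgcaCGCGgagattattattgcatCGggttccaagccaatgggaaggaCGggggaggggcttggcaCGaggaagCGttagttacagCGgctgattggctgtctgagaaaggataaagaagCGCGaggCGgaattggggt
*Dntt* had 2 CpG and a GC content of 41.6%, and *Il7r* had 1 CpG and 44.0%. *Notch1* had 16 CpG and 66.0%, and *Sox4* had 11 CpG and 50.8%. The median over the 32851 start sites of the RefSeq table was 6 CpG. *Rag1* and *Rag2* had 3 CpG each. Short motifs of lymphoid factors were searched on both strands of these windows in all 10 genes. TGGGAA, the core shared by Ikaros and the NOTCH partner RBPJ, was in *Rag1*, *Sox4* and *Bcl11a*, and in 21.6% of all windows of that length. TGTGGT, a RUNX core, was in *Rag1* alone (14% of all), CAGGTG, an E protein site, also in *Rag1* alone (17.2% of all), and CTTTGT, a core of TCF and SOX factors, in *Ikzf1* alone (16.5% of all). No motif overlapped another in these hits, and none of the 4 motifs was in the windows of *Dntt*, *Il7r* or *Notch1*.

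*Dntt* (ENSMUSG00000025014) encodes the polymerase that adds bases without a template at the joints of antigen receptor genes, and it was the one tested gene that rose. It lies on the plus strand of chromosome 19 from 41029275 to 41059523 (mm10), and no other gene of the table overlaps it. CTRL libraries measured 56.9, 59.4 and 58.5 FPKM, and cKO libraries 66.7, 66.7 and 67.0 FPKM, from 2226 to 2658 reads in each. Every cKO library lay above every CTRL library, and the 3 cKO values were close to identical. The mean was 14.6% higher (limma log2 fold change 0.19, SE 0.026, adjusted p = 0.00171). Over the 20 alternatives the log2 fold change was 0.14 to 0.22, and *Dntt* passed in 19, the exception being the 2-fold limit.

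*Rag1* and *Rag2* encode the recombinase that cuts antigen receptor genes, and both were near the lower end of the table. The 2 genes are neighbours on chromosome 2, *Rag2* (ENSMUSG00000032864) from 101624718 to 101632529 on the plus strand and *Rag1* (ENSMUSG00000061311) from 101638282 to 101649501 on the minus strand. *Rag2* had 70, 58 and 48 reads in CTRL and 28, 42 and 60 in cKO libraries, or 1.03, 0.961 and 0.730 against 0.437, 0.673 and 0.942 FPKM. The groups overlapped, and the 3 cKO libraries differed among themselves with a coefficient of variation of 37.0%. *Rag1* had 12, 10 and 6 reads in CTRL and 10, 13 and 7 in cKO libraries, so only a large difference was detectable at this depth. On recovered reads with limma's voom, the log2 fold change was -0.44 for *Rag2* (95% interval -1.01 to 0.14, adjusted p = 0.219) and 0.15 for *Rag1* (-0.84 to 1.15, adjusted p = 0.826). Both genes lie inside the span of *B230118H07Rik*, which measured 8.81 ± 0.395 FPKM in CTRL and 9.04 ± 0.606 FPKM in cKO LSKs. How the counting assigned reads in the shared span is not given in the sources used here.

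*Il7r* (ENSMUSG00000003882, chromosome 15 from 9505788 to 9530176, minus strand) encodes the alpha chain of the IL-7 receptor, which early B and T precursors need to survive and divide. Its reads numbered 62, 55 and 71 in CTRL and 106, 95 and 90 in cKO libraries, or 0.669, 0.669 and 0.793 against 1.21, 1.12 and 1.04 FPKM. All cKO libraries lay above all CTRL libraries, as in 9.48% of the 12785 genes that had reads but were below the level of testing. The mean was 58.0% higher. Without the filter on low values, where 17.1% of genes passed (9.02% upward and 8.1% downward), *Il7r* rose by 0.31 on the log2(FPKM + 1) scale (adjusted p = 0.0362, limma). On recovered reads with voom, a fit added after the data were seen, where 41.6% of genes passed (22.2% upward and 19.4% downward), it rose by 0.68 (standard error 0.19, adjusted p = 0.00645).

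T and NK cell markers moved with *Il7r*. Of 17 markers, 12 were higher in every cKO library than in any CTRL library and 1, *Nkg7*, was lower. Among the 13 below the level of testing 10 were higher in this way, against 9.48% of all such genes with reads. Among the 4 tested, 2 were higher and 1 lower, against 25.5% and 28.5% of all genes tested. The sum of the 16 other than *Nkg7* was 16.3 to 16.8 FPKM in CTRL and 32.8 to 34.9 FPKM in cKO libraries, and with *Nkg7* the sum was 366 to 376 against 311 to 315 FPKM. The 3 CD3 subunits together measured 0.0708 to 0.351 FPKM in CTRL and 2.23 to 2.50 FPKM in cKO libraries. *Cd3e* had no read in any CTRL library and 53 reads over the 3 cKO libraries, and *Cd8a* had none in the latter. *Trbc2* rose from 1.22 ± 0.182 to 6.13 ± 0.235 FPKM (by limma 1.69 on the log2 scale, adjusted p = 1.69e-05) and *Lat* from 9.24 ± 0.391 to 14.4 ± 0.957 FPKM (0.58, adjusted p = 4.28e-04). *Trbc1* measured 3.53 ± 0.575 and 3.68 ± 0.490 FPKM, with overlapping groups, and did not pass (adjusted p = 0.772, limma). The groups also overlapped for *Ncr1*, *Prf1* and *Cd8a*. The paper's lineage stain for stem and progenitor cells included CD3, CD4 and CD8. Whether T or NK cells remained among the sorted cells was not tested. Nor was their part in the values of *Il7r* and of the other genes that T and NK cells use.

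*Notch1* (ENSMUSG00000026923) encodes the receptor whose signal commits progenitors to the T lineage. It lies on the minus strand of chromosome 2 from 26457903 to 26516663. It measured 2.31, 2.63 and 2.35 FPKM in CTRL and 1.66, 1.67 and 1.63 FPKM in cKO libraries, from 642 to 660 and 433 to 443 reads. The groups were far apart beside their spread, and the mean was lower by 31.9% of the CTRL mean, the largest share among the 7 tested genes. *Notch1* fell by 0.37 on the log2(FPKM + 1) scale (standard error 0.065, adjusted p = 0.00503, limma), and by 0.53 on recovered reads (adjusted p = 1.53e-05, voom). After removal of trends with GC content and length, it fell by 0.24 (adjusted p = 0.0249).

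*Sox4* (ENSMUSG00000076431, chromosome 13 from 28948919 to 28953713, minus strand), an HMG box transcription factor needed by early B precursors, had the lowest log2 fold change of the 7 with a pseudocount of 1, while *Notch1* lay lower with a pseudocount of 0.1 (-0.53 against -0.44) and on recovered reads with voom (-0.53 against -0.42). Its values were 22.3, 22.8 and 20.5 FPKM in CTRL and 15.4, 17.5 and 15.6 FPKM in cKO libraries, with no overlap. It fell by 0.42 on the log2(FPKM + 1) scale (standard error 0.062, adjusted p = 0.0025, limma), or 26.2% of the CTRL mean. *Tcf7* (ENSMUSG00000000782, chromosome 11 from 52252371 to 52283014, minus strand), the HMG box factor TCF-1, measured 2.70, 3.07 and 3.08 FPKM in CTRL and 1.93, 2.55 and 2.21 FPKM in cKO libraries. The groups did not overlap, but the highest cKO value came within 0.152 FPKM of the lowest CTRL value. *Tcf7* fell by 0.29 (standard error 0.087, adjusted p = 0.0356, limma). That call rests on most of the libraries, since the adjusted p rose to 0.102 or 0.101 when CTRL replicate 2 or 3 was left out and to 0.0906 or 0.0839 when cKO replicate 1 or 3 was. The study named *Sox4* and *Tcf7* from these same libraries, so their direction is not independent evidence.

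*Ikzf1* (ENSMUSG00000018654, chromosome 11 from 11685003 to 11772926, plus strand), the zinc finger factor Ikaros, did not pass the test. It measured 41.9, 42.2 and 39.8 FPKM in CTRL and 37.6, 39.8 and 39.4 FPKM in cKO libraries. All cKO values were below all CTRL values, by as little as 0.0124 FPKM between the nearest pair (log2 fold change -0.082, 95% interval -0.17 to 0.0037, adjusted p = 0.114, limma). *Satb1* (ENSMUSG00000023927, chromosome 17 from 51736187 to 51833290, minus strand) measured 2.49, 2.70 and 2.64 FPKM in CTRL and 2.39, 2.63 and 2.46 FPKM in cKO libraries, which overlapped (-0.048, -0.19 to 0.094, adjusted p = 0.556). *Bcl11a* (ENSMUSG00000000861, chromosome 11 from 24078056 to 24174123, plus strand), a zinc finger repressor that B cell development requires, measured 6.09, 5.73 and 5.98 FPKM in CTRL and 5.95, 5.92 and 6.10 FPKM in cKO libraries. Its groups overlapped as well (0.012, -0.089 to 0.11, adjusted p = 0.843). The intervals do not show that these genes were alike in the groups, only the sizes of change they allow. The direction of *Satb1* turned when trends with gene length were removed (0.062), and that of *Bcl11a* when libraries were rescaled to a common sum (-0.0062).

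**Figure D3:**
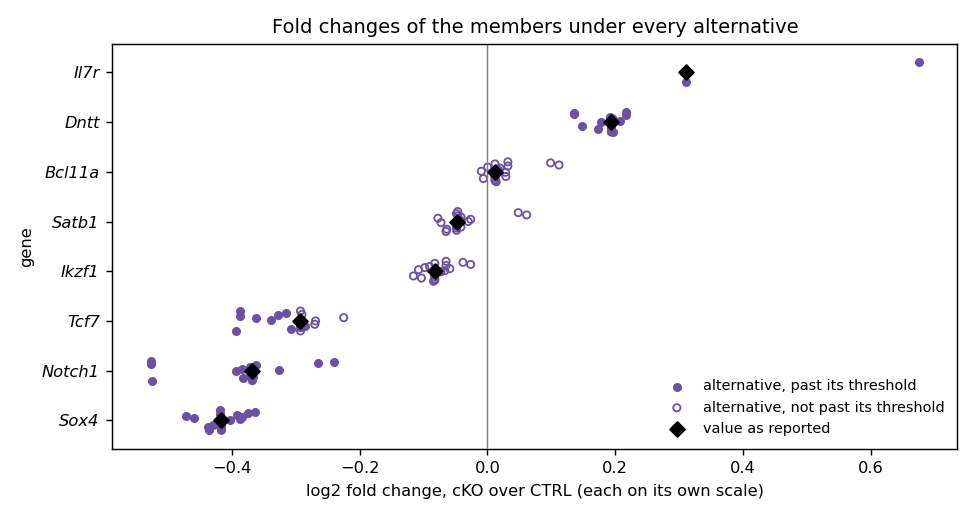
Log2 fold change (cKO over CTRL) of *Il7r* and the 7 tested genes as reported (black diamonds) and under each alternative (circles, filled where the gene passed that alternative's threshold). *Dntt* stays between 0.14 and 0.22, *Sox4* between -0.47 and -0.36, *Notch1* between -0.53 and -0.24 and *Tcf7* between -0.39 and -0.22, and *Satb1* and *Bcl11a* have values on both sides of 0.

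Ratios of 2 genes within a library do not depend on the scaling between libraries. *Dntt* over *Sox4* was 2.55, 2.60 and 2.85 in CTRL and 4.33, 3.80 and 4.30 in cKO libraries, 1.55 times as high on average. *Dntt* over *Notch1* was 24.7, 22.6 and 24.9 in CTRL and 40.1, 40.0 and 41.0 in cKO libraries, 1.68 times as high. Both ratios separated the groups, as did *Dntt* over *Ikzf1* (1.36 to 1.47 against 1.68 to 1.77) and *Dntt* over *Bcl11a* (9.34 to 10.4 against 10.97 to 11.3). The ratio of the receptor *Il7r* to *Tcf7* was 0.248, 0.218 and 0.258 in CTRL and 0.628, 0.438 and 0.469 in cKO libraries. The pairs were chosen with the fold changes known, so the ratios describe the same differences in another form and were not tested.

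**Figure D4:**
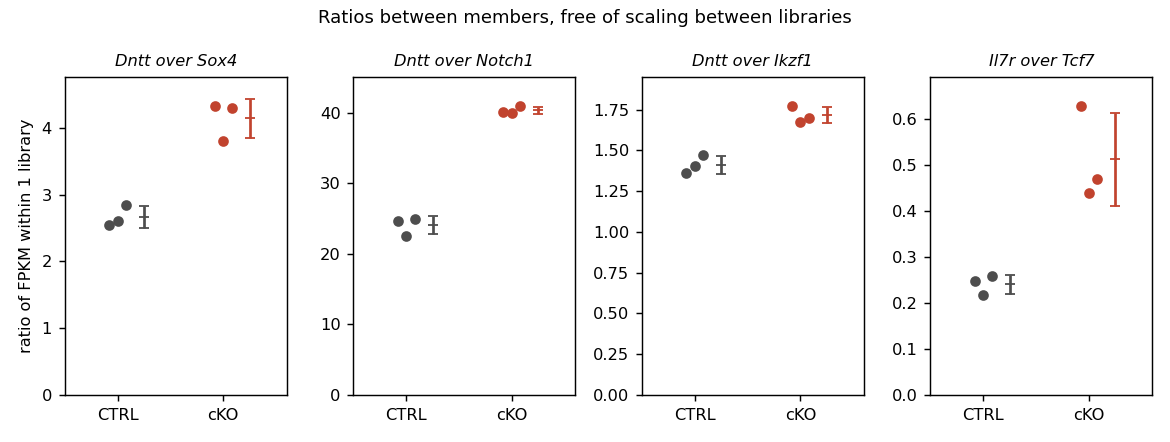
Ratios of FPKM between 2 genes within each library (points) for CTRL (grey) and cKO (red) LSKs, with the mean and SD of 3 libraries beside them and axes from 0. Each of the 4 ratios is higher in every cKO library, for instance 3.80 to 4.33 against 2.55 to 2.85 for *Dntt* over *Sox4*.

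Other genes of the same pathways were counted in 5 lists, with 72 of 106 genes at the level of testing. Of the 72, 20 rose and 18 fell, and 52.8% passed against 40.5% of all genes tested, with a median log2 fold change of -0.033 against -0.0096. Of the 20, 3 (*Il2rb*, *Jag2* and *Cd79a*) averaged under 1 FPKM in CTRL and entered the test through the cKO libraries, where they were high, which leaves 17. Of the 34 genes below the level of testing, 11 were higher in every cKO library than in any CTRL library and 1 was lower. Of all genes with reads below that level, 9.48% were higher in this way. In the IL-7 receptor and FLT3 list 5 of 10 tested genes rose and 1 fell (median 0.24). *Flt3*, the receptor that marks lymphoid-primed progenitors, measured 20.6, 19.1 and 19.7 FPKM in CTRL and 28.8, 30.3 and 31.1 FPKM in cKO libraries (by limma 0.58 on the log2 scale, adjusted p = 1.47e-04). *Il2rg*, the common gamma chain that pairs with *Il7r*, rose from 20.1 ± 1.83 to 31.1 ± 0.231 FPKM (0.61, adjusted p = 4.77e-04), and *Il2rb*, a receptor chain of T and NK cells, from 0.312 ± 0.0987 to 2.23 ± 0.183 FPKM (1.30, adjusted p = 1.27e-04). *Stat5b*, which relays the IL-7 signal, fell from 28.0 ± 0.400 to 22.7 ± 0.487 FPKM (-0.29, adjusted p = 5.78e-04). *Jak1*, *Jak3* and *Stat5a* did not pass (adjusted p = 0.0969 to 0.725), and *Il7*, *Il2ra* and *Il9r* were below 0.5 FPKM in every library. All 3 were higher in every cKO library than in any CTRL library. *Il2ra*, a receptor chain of activated T cells, had 13 reads in CTRL and 76 in cKO libraries and passed without the filter (adjusted p = 0.0109, limma). It also passed on recovered reads (2.48 on the log2 scale, adjusted p = 3.60e-04, voom). It reached the read minimum of that voom fit only through the cKO libraries, where it was high.

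Among 21 tested genes of the Notch pathway, 6 rose and 6 fell (median -0.13). With *Notch1* went *Notch2* (4.10 ± 0.235 to 3.27 ± 0.0947 FPKM, by limma -0.25 on the log2 scale, adjusted p = 0.0115), the coactivator *Maml1* (-0.31) and the gamma-secretase subunit *Ncstn* (-0.30). *Dtx4*, an E3 ligase of the Deltex family, fell most, from 11.4, 10.9 and 10.4 to 6.81, 6.42 and 6.97 FPKM (-0.62, adjusted p = 1.99e-04). In the other direction *Mfng*, a fringe glycosyltransferase that modifies Notch receptors, rose by 0.44 (adjusted p = 3.75e-04), the presenilin gene *Psen2* by 0.40 and the ligand *Jag2* by 0.36. *Hes1*, a target of Notch signals, measured 4.64 ± 0.310 FPKM in CTRL and 3.98 ± 0.914 FPKM in cKO LSKs and did not pass (adjusted p = 0.267). *Hes5*, another target, was below the level of testing and higher in every cKO library, at 0.414 ± 0.208 against 0.911 ± 0.104 FPKM (adjusted p = 0.0548 without the filter, limma, and 0.0224 on recovered reads, voom). It reached the read minimum of that voom fit through the cKO libraries, where it was high. *Dtx1*, *Notch3*, *Notch4*, *Dll1*, *Dll4*, *Jag1*, *Hey1* and *Aph1b* were below 0.5 FPKM in every library.

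Of 12 tested partners of V(D)J joining, 2 rose and 2 fell (median -0.0046), 33.3% in all. *Xrcc5*, which encodes Ku80, rose from 6.44, 6.71 and 6.38 to 12.5, 12.3 and 11.2 FPKM (by limma 0.79 on the log2 scale, adjusted p = 7.77e-05), and *Paxx*, a factor of the same end joining pathway, rose by 0.47. *Xrcc6*, which encodes the partner Ku70, measured 21.3 ± 0.461 and 22.8 ± 0.893 FPKM and did not pass (0.090, adjusted p = 0.105). *Poll* (-0.22), a polymerase related to *Dntt*, and *Nhej1* (-0.24, adjusted p = 0.0333, limma) fell. *Nhej1* did not pass without the filter (adjusted p = 0.0797, limma) or on recovered reads (adjusted p = 0.208, voom). Of the paralogs of the member factors, 9 of 11 stayed below 0.5 FPKM in every library, among them *Lef1*, *Bcl11b* and *Ikzf3*. Of the 9, 4 were higher in every cKO library than in any CTRL library (these 3 and *Tcf7l2*), against 9.48% of all untested genes with reads. *Ikzf3*, the factor Aiolos of later lymphoid cells, had 55 reads in CTRL and 177 in cKO libraries (adjusted p = 0.00686 without the filter, limma, and 1.20e-04 on recovered reads, voom). *Bcl11b*, a T cell factor, had 16 and 39 reads (adjusted p = 0.0756 and 0.0373 in the same fits). It reached the read minimum of the voom fit only through the cKO libraries, where it was high. *Sox12*, the relative of *Sox4* that could be tested, rose from 7.53 ± 0.629 to 9.27 ± 0.364 FPKM (0.27, adjusted p = 0.0146), while *Ikzf2* did not pass (adjusted p = 0.517).

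Among 27 tested genes of the list of other early lymphoid genes, 6 rose and 9 fell (median -0.066). *Irf8*, a factor of B cell, monocyte and dendritic cell fate, fell from 52.7, 51.5 and 52.1 to 15.4, 14.8 and 13.3 FPKM (by limma -1.78 on the log2 scale, adjusted p = 3.85e-06). *Id3* (-0.99) and *Nfil3* (-0.70), regulators of lymphoid fate, also fell. *Id2*, which innate lymphoid and NK cells express, rose from 3.51, 2.65 and 3.65 to 8.74, 9.02 and 9.76 FPKM (1.26, adjusted p = 1.83e-04). *Cd79a* of the B cell receptor rose from 0.743 ± 0.199 to 1.52 ± 0.161 FPKM (0.54) and *Gimap6* by 0.45. *Tcf3*, the E protein that works with *Ikzf1* in lymphoid priming, measured 54.9 to 57.0 FPKM in CTRL and 55.5 to 57.4 FPKM in cKO libraries (adjusted p = 0.851), a gene chosen here after its values were seen. *Ebf1*, *Pax5*, *Blnk*, *Igll1*, *Ccr9* and *Ptcra*, which follow later in B and T development or in other lymphoid lineages, were below 0.5 FPKM in every library. Of the 9 untested genes of the list, 2 were higher in every cKO library than in any CTRL library, against 9.48% of all untested genes with reads. They were *Pax5* (0 reads in CTRL and 9 in cKO libraries) and *Ccr9* (57 and 133 reads).

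**Figure D5:**
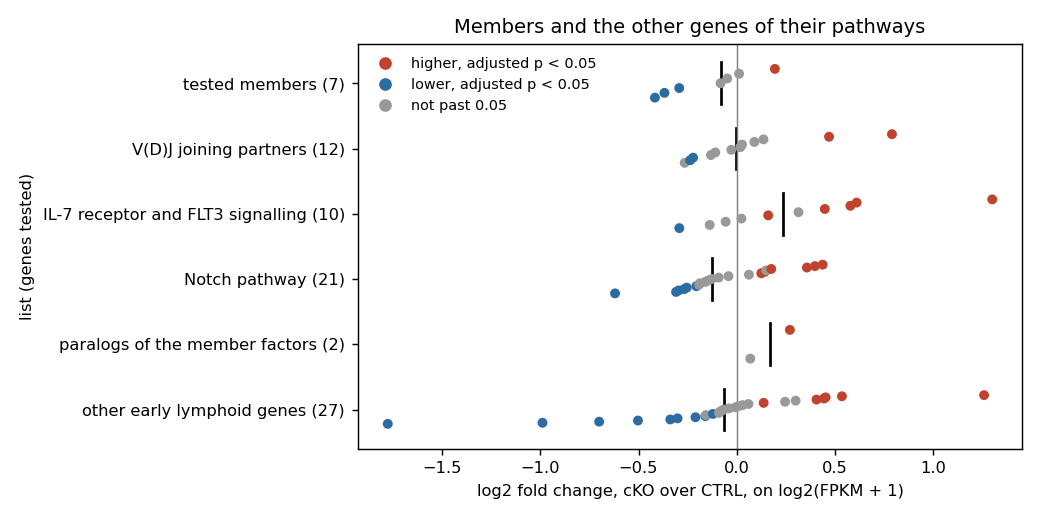
Log2 fold change (cKO over CTRL, on log2(FPKM + 1)) of each tested gene, by list, with red for genes that rose, blue for genes that fell and grey for genes that did not pass an adjusted p of 0.05, and a black bar at each list's median. The IL-7 receptor and FLT3 list has its median at 0.24 and the Notch list at -0.13, and the lowest point is *Irf8* at -1.78.

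Markers of other cells differed between the groups beside these results. Of 11 B and plasma cell markers, 3 of 6 tested rose and 2 fell. *Jchain* rose most, from 30.4 ± 0.347 to 64.0 ± 3.63 FPKM, and *Cd79a* was tested only through its cKO level. *Xbp1* fell from 63.2 ± 0.342 to 50.6 ± 1.65 FPKM and *Sdc1* from 3.31 ± 0.360 to 2.26 ± 0.363 FPKM. The summed level was 132 to 137 FPKM in CTRL and 155 to 159 FPKM in cKO libraries, with *Ms4a1*, *Cd22* and *Cr2* below 0.5 FPKM throughout. Of 9 plasmacytoid dendritic cell markers, 2 of 5 tested fell, *Irf8* and *Bst2*, and none rose (summed 321 to 331 against 258 to 263 FPKM). Of the 4 untested, all below 0.5 FPKM, *Pacsin1* and *Ccr9* were higher in every cKO library (adjusted p = 0.00586 and 0.00382 on recovered reads, voom). All 9 tested erythroid markers rose (summed 574 to 581 against 1007 to 1045 FPKM), and 5 of 6 mast cell and basophil markers rose (summed 90.3 to 102 against 149 to 158 FPKM). *Hbb-bs* and *Hba-a1* of the former and *Cma1* and *Fcer1a* of the latter were tested only through their cKO level, and the untested erythroid marker *Hba-a2* was lower in every cKO library, with 8 reads in CTRL and 1 in cKO. *Hba-a1* and *Hba-a2* are near-identical copies, so how reads were split between them is uncertain. Of 9 tested neutrophil and monocyte markers 8 fell (summed 10646 to 10715 against 5972 to 6095 FPKM), as did all 10 immediate early genes (summed 789.6 to 807 against 380.6 to 403 FPKM). Mitochondrial genes took 1.71% to 1.82% of reads, with overlapping ranges in the 2 groups. The part of these differences in the values of the lymphoid priming genes was not tested.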

How the data were processed

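RNA-seq values of 6 LSK libraries were deposited by the authors as 1 table of FPKM, scaled by gene length and library size, for 54532 genes. The submitters' processing notes name HISAT2 2.0.5 and mm10, and the counting program and its strand setting are not given in the sources used here. GENCODE M21 (GRCm38) held all 10 genes, and 9 of them had the table's coordinates. Columns of the table were matched to samples by title.

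Reads were recovered by multiplying FPKM by gene length and dividing by the value of 1 read, and 100% of values came out whole (within 0.02). Groups came from the sample labels. The test was limma 3.58.1 (R 4.3.3) on log2(FPKM + 1), two-sided, eBayes with a trend, over the 11552 genes whose mean reached 1 FPKM. A fold change on this scale understates that of low genes. On data simulated at these means, the test called 91% of 2-fold and 85% of 1.5-fold changes and 0.141% of unchanged genes. That simulation gave every gene the same dispersion and changed only a small part of the genes, while 40.5% passed in these data. Its rates need not hold here. Replicate libraries were not identical and differed by more than counting error. Replicate numbers did not pair the libraries (correlation of deviations -0.0262 to -0.00459 for equal numbers).

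Members and lists were chosen with earlier results of these data known. Named besides the members were at most 3 genes of a list in each direction, by size among those that passed, *Myh9*, *Kit* and *Ly6a*. Other genes, such as those that did not pass, were named after their values were seen. Promoter windows came from RefSeq (250 bases before a start site, the site nearest the table's 5′ end), with 10 of 10 genes matched. Python 3.11.15 was used with pandas 2.3.3, numpy 2.4.6 and matplotlib 3.10.9.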

Additional observations from a re-analysis of the deposited data

How the results depend on the processing

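The counts of members (1 higher and 3 lower) became 2 higher without the filter on low values and also with voom on recovered reads of genes with at least 10 reads in 3 libraries, an alternative chosen after seeing the data, since *Il7r* then enters the test. They became 1 lower with a mean of at least 5 FPKM, which removes *Tcf7* and *Notch1*, and 0 higher and 0 lower with the 2-fold limit and an unadjusted p under 0.05. With that limit the counts over all genes were 165 higher and 81 lower in place of 2295 and 2378, and those of pathway genes 2 and 1 in place of 20 and 18. Leaving out 1 library in turn gave 1 member higher and 2 to 3 lower, 17 to 20 pathway genes higher and 15 to 19 lower. *Dntt*, *Sox4* and *Notch1* passed in every alternative that tested them other than the 2-fold limit, with adjusted p of at most 0.00954, 0.0214 and 0.0249. *Tcf7* passed in 12 of 19, and its adjusted p was also above 0.05 without the filter (0.0940) and without moderation of the variance (0.0823). The log2 fold change of *Satb1* was 0.062 with length trends removed and 0.048 with GC and length trends removed (also chosen after seeing the data). That of *Bcl11a* was -0.0062 with libraries rescaled to a common sum and -0.0094 to 0.029 when 1 library was left out, negative without CTRL replicate 2. With a replicate block, 2063 genes were higher and 2044 lower over all genes, 1 member was higher and 3 were lower, and the numbers share only a label, since not every library correlated best with its own number. The cause was not tested where none is named. Depth limits *Rag1* most, with 6 to 13 reads per library.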

Other observations

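In all, 17 other genes of the table overlap the spans of 8 of the 10 lymphoid priming genes, and *B230118H07Rik* is the one with a mean of at least 1 FPKM. *Gm12000*, which runs opposite to *Ikzf1*, had 0.879, 0.271 and 0.249 FPKM in CTRL and 0.934, 0.349 and 0.0854 FPKM in cKO libraries, with overlapping groups. *0610009E02Rik*, opposite to the 3′ end of *Notch1*, measured 0.376 ± 0.134 FPKM in CTRL and 0.350 ± 0.0490 FPKM in cKO LSKs, so the groups overlapped there while *Notch1* fell. *4930538E20Rik*, opposite to *Bcl11a*, measured 0.376 ± 0.123 and 0.310 ± 0.0851 FPKM. No read was found for 4 of the 17 genes in any library. Without knowledge of the strand setting, reads of a gene and of its opposite partner cannot be told apart.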
